A study of Mus musculus with 9 samples.

Results

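Cytochrome P450 genes (Cyp genes) were followed across whole lungs of BALB/c mice of about 12 weeks, that had received ovalbumin (OVA), the egg protein used to bring about allergic airway inflammation in mice, or saline (PBS). The members were all genes whose symbol on the array is Cyp followed by a number, and they came to 91 genes on 108 probes, of 25760 named genes and 39464 probes in all. The 2-colour arrays numbered 9, of which 5 were labelled OVA and 4 PBS. By the labels, channel 2 (Cy5) held the RNA of a single lung, and channel 1 (Cy3) held a pool of the PBS-treated lungs on the arrays of both groups. Values are log2 ratios of channel 2 over channel 1, each gene by its brightest probe, and a change is the mean ratio of the OVA arrays minus that of the PBS arrays. Whether the lungs are those of separate mice is not given in the labels, and the p-values therefore measure only the spread between these samples, with a precision limited by the number of arrays.

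P450 enzymes are haem proteins that insert an oxygen atom into their substrate with electrons passed on by a reductase. Families 1 to 3 oxidise mostly drugs, smoke constituents and other foreign compounds, family 4 acts on fatty acids and eicosanoids, and most of the others make or break down sterols, bile acids, steroid hormones, vitamin D or retinoic acid. In mouse lung, club cells (secretory cells of the airway lining) and alveolar type 2 cells (the surfactant producers) are known for P450 activity, and Cyp2f2 is a usual club cell marker.

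The direction of every change given here is that of the deposited ratio, because the single channels go against the labels. Of the 4 sets of readings (2 channels in each group), 3 were alike, and the set that differed was channel 1 of the OVA arrays, which is labelled as the PBS pool. When the sign of each OVA ratio is reversed, 27 of the 28 members called below had the opposite call, and Cyp4f18 lost its call. A further 7 members passed only with that sign (Cyp2c23, Cyp2c69, Cyp2r1, Cyp8b1, Cyp11a1, Cyp26a1 and Cyp26b1), which gave 25 members higher and 9 lower. Of the members not called below, 18 kept the sign of their change, among them Cyp7a1, Cyp11b1 and Cyp19a1. Which case holds cannot be told. Total intensity per channel lay between 41722 and 43610. Over the brightest probes of genes with values on every array, the log ratios of any pair of PBS arrays had r between -0.29 and 0.14. All 91 members had a value on all 9 arrays. Intensities above 0.01 are rounded to 0.01, and 47 members had a probe below the median intensity of all probes (0.139), where 1 rounding step is a large share of the value. For 10 members the ratio was exactly 1 on all 5 OVA arrays, and for 3 of them (Cyp2d9, Cyp17a1 and Cyp2j5) on all 9 arrays.

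Past an adjusted p of 0.05 in limma, fitted over 25719 genes, 28 of the 91 members changed. Of these, 22 were lower and 6 were higher on the OVA arrays, and 63 did not pass. The members were lower in 24.2% and higher in 6.59%, against 23% lower and 17.3% higher over all genes tested, of which 40.3% passed. The share of lower members was thus near that of all genes. With the OVA ratios turned in sign, 27.5% of the members were higher and 9.89% lower, against 22.5% and 16.5% of all genes, of which 39% passed. The median change was -0.0040 over the members and -0.017 over all genes tested. A fall of at least 2-fold was seen for 4 members (Cyp2a4, Cyp2a5, Cyp4b1 and Cyp2b13), against 0.583% of all genes, and a rise of that size for Cyp7b1 alone, against 2.45% of all genes. The groups did not overlap for 27 of the 28 called members, with 22 below and 5 above, and the exception was Cyp4f18. No other member was without overlap, so the share was 29.7% of the 91 members. Among all genes with values on every array it was higher, at 34.5%, 19.7% with the OVA arrays below and 14.7% above. Calls were uneven by signal: among the 44 members with a probe above the median intensity 20 were lower and 4 higher (against 32.8% lower and 25.5% higher among all such genes). Among the 47 others 2 were lower and 2 higher, and among all genes with such dimmer probes calls were few as well (9.68% lower and 6.22% higher).

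**Figure D1:**
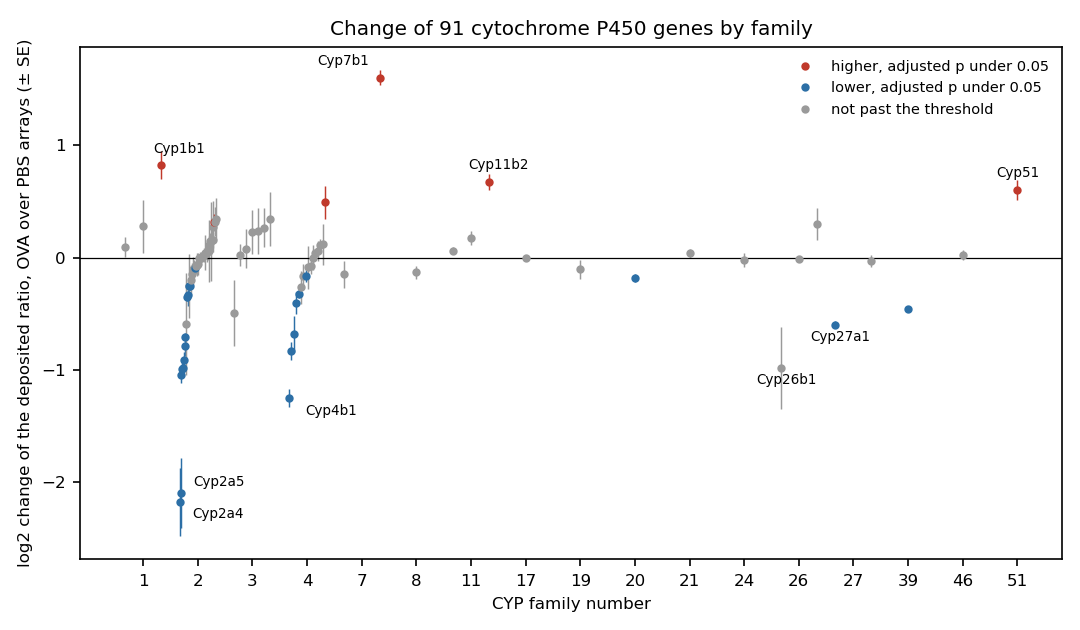
Log2 change of the deposited ratio (OVA over PBS arrays, ± SE, n = 5 and 4) for each of the 91 P450 genes, placed by CYP family number. Red and blue points passed an adjusted p of 0.05 (6 higher, 22 lower), grey points did not, and the largest changes stand in families 2, 4 and 7.

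**Figure D2:**
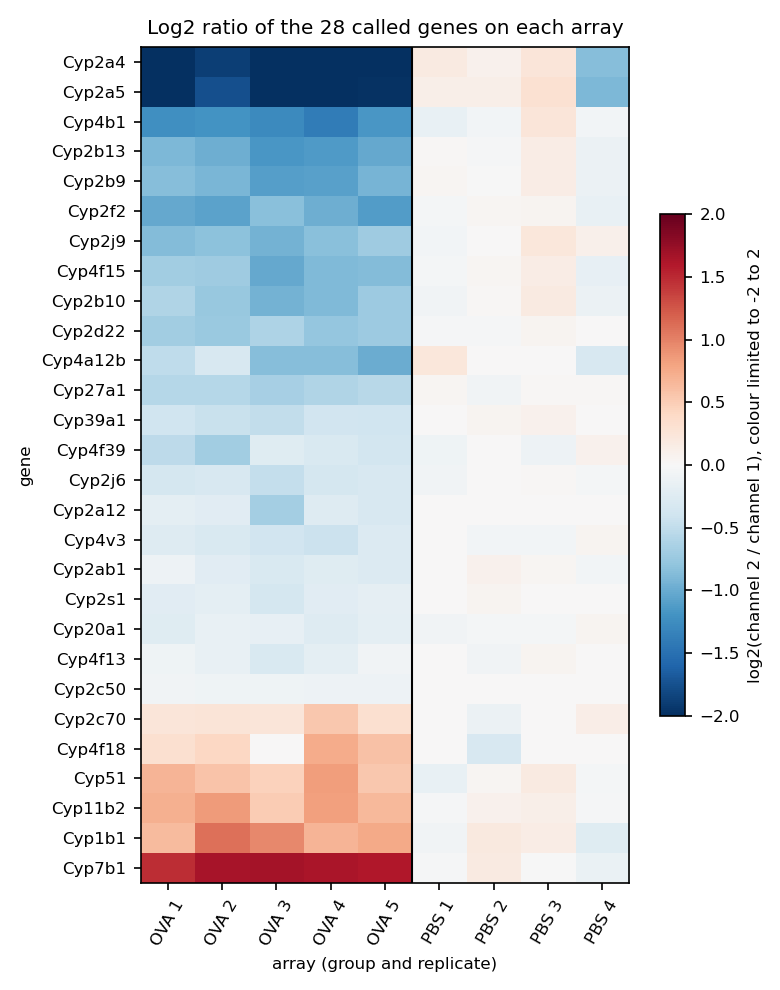
Log2(channel 2 / channel 1) of the 28 called P450 genes on each of the 5 OVA and 4 PBS arrays, ordered by their change, with colour limited to -2 to 2. The OVA arrays share a direction within each gene except Cyp4f18 (0.00 on OVA replicate 3), and PBS replicate 4 stands apart for Cyp2a4 and Cyp2a5.

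The Cyp2a, Cyp2b, Cyp2f, Cyp2g, Cyp2s and Cyp2t genes lie in a cluster on mouse chromosome 7 and oxidise inhaled and ingested foreign compounds. Of 13 measured members of this cluster 8 were lower on the OVA arrays, none was higher, and the median change was -0.34. That is 61.5% lower, against 23% of all genes tested and 32.8% of those with a probe above the median intensity. The 8 include near-identical copies, whose readings may not be separate. Cyp2a4 and Cyp2a5, which are near-identical genes for coumarin- and steroid-hydroxylating enzymes, changed most. The sequences before both genes are shown because these genes moved together. They are the 250 bases upstream of the start in the RefSeq table (GRCm38.p6, plus strand), at chr7:26306942-26307191 for Cyp2a4 and chr7:26835089-26835338 for Cyp2a5, and capitals mark the bases that differ (4 of 249 aligned bases).
Cyp2a4: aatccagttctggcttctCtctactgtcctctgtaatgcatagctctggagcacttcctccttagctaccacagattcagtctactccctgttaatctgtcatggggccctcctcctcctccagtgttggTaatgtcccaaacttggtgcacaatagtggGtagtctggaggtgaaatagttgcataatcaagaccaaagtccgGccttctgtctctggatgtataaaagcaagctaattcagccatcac
Cyp2a5: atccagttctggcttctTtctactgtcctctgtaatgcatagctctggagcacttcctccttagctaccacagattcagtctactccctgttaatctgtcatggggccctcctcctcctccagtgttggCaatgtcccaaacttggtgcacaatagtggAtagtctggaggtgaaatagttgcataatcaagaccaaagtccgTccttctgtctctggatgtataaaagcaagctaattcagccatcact
Both windows hold TATAAA, which on either strand stands in 12.4% of the 32851 windows of this length in the table and in 36.8% of the 76 windows of P450 genes.

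Cyp2a4 had log2 ratios of -2.06, -1.89, -3.06, -2.24 and -2.04 on the OVA arrays, against 0.17, 0.09, 0.25 and -0.85 on the PBS arrays. Its ratio fell by 2.17 ± 0.30 (SE, adjusted p = 0.000561), which is 4.51-fold. The second probe of Cyp2a4 did not pass (0.04), and the mean over its probes fell by 1.07. Cyp2a5 had -2.03, -1.75, -2.97, -2.19 and -1.98 on the OVA arrays, against 0.11, 0.12, 0.30 and -0.90 on the PBS arrays, a fall of 2.09 ± 0.31 (SE, adjusted p = 0.00082). In both genes OVA replicate 3 was lowest and PBS replicate 4 lay below the other PBS arrays, and the groups did not overlap. The values of the pair differed by no more than 0.13 on any array, and whether the probes tell the copies apart was not tested. Without PBS replicate 4 the changes were -2.43 for Cyp2a4 and -2.36 for Cyp2a5, and without OVA replicate 3 they were -1.97 and -1.90. In bulk tissue of this kind, fewer cells of a type and less RNA per cell cannot be told apart. Cyp2a12, a liver-type member, had a dim probe (OVA means of 0.054 in channel 2 and 0.068 in channel 1) and fell by 0.34 ± 0.09 (SE, adjusted p = 0.0211). Its ratio was exactly 1 on all 4 PBS arrays, and its call was lost on leaving out any PBS array (largest adjusted p = 0.051). Cyp2a22 and the pseudogene Cyp2a21-ps did not pass (changes of -0.06 and -0.0040).

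The Cyp2b enzymes are the classic phenobarbital-inducible P450s of liver, and some are also made in lung. Cyp2b9 and Cyp2b13 lie beside each other, and their upstream windows (chr7:26173159-26173408 and chr7:26061245-26061494, GRCm38.p6, plus strand, RefSeq) differ at 2 of 250 bases, marked in capitals.
Cyp2b9: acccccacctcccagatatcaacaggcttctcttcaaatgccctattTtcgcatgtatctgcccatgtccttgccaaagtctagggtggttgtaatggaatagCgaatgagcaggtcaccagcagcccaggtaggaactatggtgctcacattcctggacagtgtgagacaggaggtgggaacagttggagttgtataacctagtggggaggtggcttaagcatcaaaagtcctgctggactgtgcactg
Cyp2b13: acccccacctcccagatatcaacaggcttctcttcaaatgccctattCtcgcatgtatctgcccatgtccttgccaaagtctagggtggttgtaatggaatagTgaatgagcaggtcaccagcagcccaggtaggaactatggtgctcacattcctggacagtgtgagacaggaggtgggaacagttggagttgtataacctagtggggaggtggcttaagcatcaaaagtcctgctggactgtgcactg
Cyp2b13 had log2 ratios of -0.90, -0.98, -1.16, -1.13 and -1.02 on the OVA arrays, against 0.03, -0.02, 0.15 and -0.12 on the PBS arrays, a fall of 1.05 ± 0.07 (SE, adjusted p = 8.88e-06). Cyp2b9 had -0.86, -0.91, -1.10, -1.08 and -0.93 on the OVA arrays, against 0.03, -0.0081, 0.15 and -0.11 on the PBS arrays, a fall of 0.99 ± 0.07 (SE, adjusted p = 1.09e-05). Those are the values of its brightest probe: its second probe rose by 0.37 ± 0.05 (SE, adjusted p = 0.000729, probes tested singly), the third did not pass (-0.04), and the mean over its probes fell by 0.22. By their brightest probes the pair differed by no more than 0.095 on any array. Cyp2b10, the member best known as a target of the receptor CAR (Nr1i3), had -0.60, -0.77, -0.95, -0.89 and -0.72 on the OVA arrays, against -0.06, 0.03, 0.18 and -0.12 on the PBS arrays, a fall of 0.79 ± 0.09 (SE, adjusted p = 0.000131). In all 3 genes the OVA arrays lay below the PBS arrays, with OVA replicate 3 lowest. Cyp2b19, a keratinocyte enzyme, had ratios from -0.09 to 0.34 on the OVA arrays and from -0.09 to 0.09 on the PBS arrays, and did not pass (change 0.05, adjusted p = 0.685).

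Cyp2f2, the naphthalene-activating enzyme of club cells, had log2 ratios of -1.02, -1.07, -0.83, -0.97 and -1.12 on the OVA arrays, against -0.04, 0.03, 0.05 and -0.14 on the PBS arrays. Its ratio fell by 0.98 ± 0.06 (SE, adjusted p = 8.34e-06), or 1.97-fold, and no OVA array came near the PBS arrays. Cyp2s1, an epithelial P450 regulated by the dioxin receptor, had -0.23, -0.20, -0.34, -0.23 and -0.18 on the OVA arrays, against 0.00 on 3 PBS arrays and 0.05 on PBS replicate 2, a fall of 0.25 ± 0.04 (SE, adjusted p = 0.000625). Cyp2g1, an olfactory enzyme, and Cyp2t4 stayed near 0 (changes of 0.01 and -0.0036, not past the threshold). The other club cell genes measured did not move as a block. The fixed list held 14 club cell markers, of which Scgb1a1 had no named probe and was not measured. Of the 13 tested 6 were lower, 2 were higher and 5 did not pass, with a median change of -0.13. Over all genes tested 23% were lower and 17.3% higher. Over the 12 markers with a value on every array, the OVA arrays had a summed level of 62.3 to 65.0 in channel 2 and 82.1 to 89.2 in channel 1, against 56.3 to 73.0 and 64.0 to 69.1 for the PBS arrays. The part of club cell number in the Cyp2f2 change was not tested.

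Elsewhere in family 2 the calls were fewer. They took in 28.6% of the Cyp2j, 11.1% of the Cyp2d and 16.7% of the Cyp2c genes, whereas 40.3% of all genes tested passed. Of 7 Cyp2j genes, which include fatty acid epoxygenases, 2 were lower. Cyp2j9 had -0.87, -0.82, -0.95, -0.84 and -0.70 on the OVA arrays, against -0.05, 0.00, 0.23 and 0.10 on the PBS arrays, a fall of 0.91 ± 0.07 (SE, adjusted p = 1.52e-05). Cyp2j6 fell by 0.35 ± 0.04 (SE, adjusted p = 0.00013), with ratios of -0.47 to -0.32 on the OVA arrays and -0.06 to 0.03 on the PBS arrays. The other 5 Cyp2j genes changed by -0.20 to 0.14 and did not pass. Of 9 Cyp2d genes only Cyp2d22 passed. It had ratios of -0.69, -0.74, -0.62, -0.78 and -0.72 on the OVA arrays, against -0.03, -0.02, 0.06 and 0.00 on the PBS arrays, a fall of 0.71 ± 0.04 (SE, adjusted p = 1.81e-06), and the groups did not overlap.

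Of 12 Cyp2c genes, which in mice serve mostly liver and gut, Cyp2c70 was higher, Cyp2c50 was lower and 10 did not pass. Cyp2c70, a bile acid hydroxylase of mouse liver, had 0.24, 0.26, 0.24, 0.54 and 0.32 on the OVA arrays, against 0.00, -0.12, 0.00 and 0.13 on the PBS arrays (change 0.32 ± 0.07 SE, adjusted p = 0.00827). Its probe was dim, with OVA means of 0.128 in channel 2 and 0.102 in channel 1, and 1 rounding step there is worth 0.13 on the log2 scale. Cyp2c50 passed with a change of -0.09, against a rounding step of 0.09, and its ratio was exactly 1 on all PBS arrays. Hepatocyte markers were near the bottom of the scale: summed over 13 genes, channel 2 reached 0.889 to 1.13 on the OVA arrays and 1.11 to 1.46 on the PBS arrays. Of their 13 ratios 2 were higher and none lower, against 17.3% and 23% over all genes tested. Cyp2ab1 also fell (-0.25 ± 0.05 SE, adjusted p = 0.00322). Cyp2r1, the vitamin D hydroxylase, changed by 0.35, and Cyp2u1 and Cyp2w1 by 0.02 and 0.16, none past the threshold.

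Cyp2e1, the ethanol-inducible P450, varied between arrays of the same group. It had log2 ratios of -0.39, -0.40, -0.89, -2.0 and -0.33 on the OVA arrays, against 0.00, 0.75, -0.67 and -0.95 on the PBS arrays, so the groups overlapped and the change did not pass (-0.59 ± 0.45 SE, adjusted p = 0.358). The low value of OVA replicate 4 lay in channel 1, which read 1.12 there and 0.38 to 0.50 on the other OVA arrays, while channel 2 read 0.27 to 0.31 on all 5. The median ratio of 10 adipocyte markers, none of which passed, was -0.37, -0.17, -0.52, -1.46 and -0.44 on the OVA arrays, against 0.00, 0.85, -0.78 and -0.79 on the PBS arrays. Cyp2e1 and the adipocyte median were both lowest on OVA replicate 4, highest on PBS replicate 2 and low on PBS replicates 3 and 4. On the OVA arrays these markers summed to 8.0 to 9.13 in channel 2 and 11.3 to 37.0 in channel 1, and on the PBS arrays to 2.83 to 20.9 and 8.33 to 9.01. Their part in the Cyp2e1 values was not tested.

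**Figure D3:**
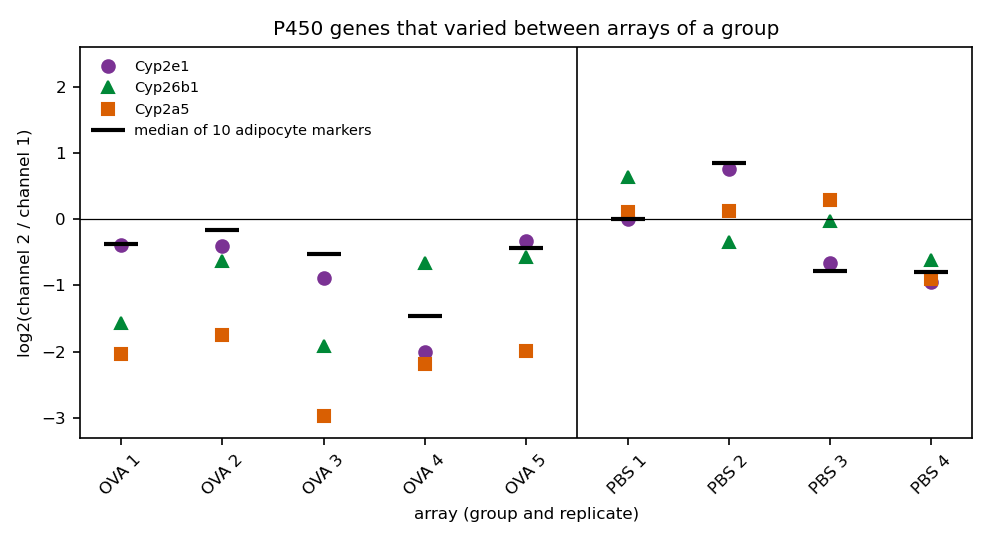
Log2(channel 2 / channel 1) of Cyp2e1, Cyp26b1 and Cyp2a5 on each of the 5 OVA and 4 PBS arrays, with the median of 10 adipocyte markers as bars. Cyp2e1 follows the bars (-2.0 beside -1.46 on OVA replicate 4, 0.75 beside 0.85 on PBS replicate 2), while Cyp26b1 and Cyp2a5 are lowest on OVA replicate 3.

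Family 1 holds the P450s best known as targets of the dioxin receptor (Ahr). Its binding core, GCGTG, was searched on both strands (as GCGTG or CACGC) in the 250 bases upstream of each start, and was found in 28.2% of all 32851 windows and in 21.1% of the 76 windows of P450 genes (68 genes). The windows of Cyp1a1 (chr9:57697363-57697612, plus strand) and Cyp1b1 (chr17:79715062-79715311, minus strand, both GRCm38.p6, RefSeq) are shown with the match in capitals, 1 in each.
Cyp1a1: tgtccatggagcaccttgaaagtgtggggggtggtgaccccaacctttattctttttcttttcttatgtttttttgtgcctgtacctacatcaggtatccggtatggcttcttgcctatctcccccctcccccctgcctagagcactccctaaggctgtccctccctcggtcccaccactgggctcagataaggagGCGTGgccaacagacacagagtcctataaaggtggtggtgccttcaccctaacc
Cyp1b1: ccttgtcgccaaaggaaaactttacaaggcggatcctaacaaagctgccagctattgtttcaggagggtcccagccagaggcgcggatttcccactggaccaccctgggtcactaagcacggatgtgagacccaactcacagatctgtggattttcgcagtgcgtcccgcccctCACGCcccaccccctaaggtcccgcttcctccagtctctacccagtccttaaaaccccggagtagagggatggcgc
Cyp1b1, which oxidises steroids and polycyclic hydrocarbons, had log2 ratios of 0.64, 1.1, 0.96, 0.69 and 0.76 on the OVA arrays, against -0.07, 0.19, 0.15 and -0.23 on the PBS arrays. It rose by 0.82 ± 0.12 (SE, adjusted p = 0.000871), or 1.77-fold, with no overlap of the groups, and its other probe rose by 0.90. Cyp1a1 had -0.33, 0.46, 0.46, 0.86 and 0.07 on the OVA arrays, against -0.13, -0.24, 0.28 and 0.18 on the PBS arrays, so the groups overlapped and it did not pass (0.28 ± 0.24 SE, adjusted p = 0.396). Cyp1a2, the liver member, did not pass (0.10, adjusted p = 0.458). That Cyp1b1 changed differently from Cyp1a1 was not tested. Of other genes of this receptor, Ahrr, its repressor, was higher (0.37, adjusted p = 0.000773), Tiparp, another target, was lower (-0.29, adjusted p = 0.0085), and Ahr did not pass (-0.28, adjusted p = 0.0785).

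No member of family 3, the main drug-oxidising P450s of liver and gut, passed in limma. Its 7 genes, all Cyp3a, changed by -0.49 to 0.35. Cyp3a13 had the lowest value, with ratios of 0.00, -1.32, 0.00, -0.42 and 0.00 on the OVA arrays, against 0.00, 0.58, 0.00 and 0.00 on the PBS arrays, and a mean intensity of only 0.0272 (adjusted p = 0.237). Cyp3a11 changed by 0.02 (adjusted p = 0.894). All 7 probes lay below the median intensity, and 1 rounding step was worth 0.18 to 0.78 on the log2 scale for them. Among all genes with such dimmer probes 9.68% were lower and 6.22% higher.

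Family 4 hydroxylates fatty acids, prostaglandins and leukotrienes. Of its 16 genes 6 were lower, 1 was higher and 9 did not pass. That is 37.5% lower and 6.25% higher, against 23% and 17.3% of all genes tested. Cyp4b1, a lung P450 that activates furans and aromatic amines, had log2 ratios of -1.23, -1.19, -1.28, -1.39 and -1.16 on the OVA arrays, against -0.15, -0.06, 0.25 and -0.05 on the PBS arrays. It fell by 1.25 ± 0.08 (SE, adjusted p = 8.97e-06), or 2.38-fold. The groups lay far apart, and 3 bright probes of the gene gave -1.25, -1.28 and -1.27. Among the Cyp4f genes, which inactivate leukotrienes and related lipids, Cyp4f15 had -0.70, -0.71, -1.02, -0.88 and -0.87 on the OVA arrays, against -0.04, 0.04, 0.14 and -0.16 on the PBS arrays, a fall of 0.83 ± 0.08 (SE, adjusted p = 8.55e-05). Cyp4f39 (-0.41, adjusted p = 0.00909) and Cyp4f13 (-0.16, adjusted p = 0.0368) were also lower. Cyp4f13 lost its call on leaving out any of 5 single arrays (OVA replicates 2 and 4, PBS replicates 1, 3 and 4), with quantile normalised intensities and with loess.

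Cyp4f18, the leukotriene-oxidising enzyme of mouse neutrophils, was the family's single rise. It had 0.32, 0.42, 0.00, 0.74 and 0.58 on the OVA arrays, against 0.00, -0.32, 0.00 and 0.00 on the PBS arrays (change 0.49 ± 0.15 SE, adjusted p = 0.0281). The groups touched at 0.00, the probe had OVA means of 0.048 in channel 2 and 0.036 in channel 1, and 1 rounding step was worth 0.35. Its call was lost on leaving out any of 7 arrays (OVA replicates 2, 4 and 5 and each PBS array), with adjusted p-values up to 0.0792. Of the Cyp4a genes, fatty acid omega-hydroxylases of which some are under PPARα (Ppara), only Cyp4a12b was lower (-0.68 ± 0.16 SE, adjusted p = 0.00923). Its probe was dim, with OVA means of 0.058 in channel 2 and 0.092 in channel 1, and 1 rounding step was worth 0.23. Cyp4a10, a usual readout of that receptor, had ratios from -0.58 to 0.00 on the OVA arrays and 0.00 to 0.26 on the PBS arrays and did not pass (-0.27, adjusted p = 0.187). Cyp4v3 fell by 0.32 ± 0.04 (SE, adjusted p = 0.000453), and Cyp4x1 did not pass (change 0.00).

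The P450s of sterols, bile acids and steroids number 14 here (families 7, 8, 11, 17, 19, 21, 27, 39, 46 and 51), and 3 were higher, 2 lower and 9 not past the threshold. That is 21.4% higher and 14.3% lower, against 17.3% and 23% of all genes tested. Cyp7b1, which hydroxylates oxysterols and is known for its part in making an oxysterol that attracts immune cells, showed the largest rise of all members in the deposited ratio (with the OVA ratios turned in sign it fell by 1.60, and the largest rise was that of Cyp2a4, 2.34). It had log2 ratios of 1.48, 1.65, 1.66, 1.63 and 1.60 on the OVA arrays, against -0.03, 0.18, -0.01 and -0.13 on the PBS arrays, a rise of 1.60 ± 0.06 (SE, adjusted p = 6.22e-07), or 3.04-fold. The OVA arrays lay close together and well above every PBS array. Cyp27a1, the mitochondrial sterol hydroxylase of bile acid synthesis, had -0.56, -0.57, -0.66, -0.60 and -0.56 on the OVA arrays, against 0.04, -0.06, 0.03 and 0.02 on the PBS arrays, a fall of 0.60 ± 0.03 (SE, adjusted p = 2.37e-06). Cyp39a1, an oxysterol hydroxylase, fell by 0.46 ± 0.03 (SE, adjusted p = 9.78e-06), with ratios of -0.49 to -0.38 on the OVA arrays and 0.00 to 0.08 on the PBS arrays. Genes of oxysterol and bile acid metabolism thus went both ways, Cyp7b1 higher and Cyp27a1 and Cyp39a1 lower.

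Cyp51, the lanosterol demethylase of cholesterol synthesis, had 0.68, 0.57, 0.46, 0.83 and 0.54 on the OVA arrays, against -0.14, 0.03, 0.18 and -0.03 on the PBS arrays, a rise of 0.61 ± 0.09 (SE, adjusted p = 0.000768). The genes of its usual regulators were lower (Srebf2 -0.20, adjusted p = 0.00175, and Srebf1 -0.25, adjusted p = 0.006). Cyp11b2, the aldosterone synthase of the adrenal, had 0.71, 0.86, 0.51, 0.83 and 0.65 on the OVA arrays, against -0.03, 0.08, 0.11 and -0.03 on the PBS arrays, a rise of 0.67 ± 0.08 (SE, adjusted p = 0.000158). No OVA array overlapped the PBS arrays in either gene. Cyp11b1, its neighbour in the adrenal pathway, changed by 0.06 and did not pass. Cyp11a1, the enzyme that starts steroid synthesis, lay just outside the threshold by its brightest probe (0.17, adjusted p = 0.052), while its second probe passed when probes were tested singly (0.27, adjusted p = 0.0125). Cyp7a1 and Cyp8b1 of liver bile acid synthesis (-0.15 and -0.13), Cyp17a1 and Cyp21a1 of steroid synthesis (0.00 and 0.04), aromatase Cyp19a1 (-0.10) and the brain cholesterol hydroxylase Cyp46a1 (0.02) did not pass.

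Families 24 and 26 break down vitamin D and retinoic acid, and Cyp27b1 makes the active form of vitamin D. Cyp26b1, the retinoic acid hydroxylase, had log2 ratios of -1.56, -0.62, -1.91, -0.67 and -0.58 on the OVA arrays, against 0.63, -0.34, -0.03 and -0.62 on the PBS arrays. The mean change of -0.98 ± 0.37 (SE) was as large as that of Cyp2f2 but did not pass (adjusted p = 0.0657). The arrays of each group differed widely and the groups overlapped. It passed when the dimmest probes were left out of the fit (adjusted p = 0.039) and for the OVA arrays alone against 0 (adjusted p = 0.0247). Cyp26a1 (0.30), Cyp26c1 (-0.01), Cyp24a1 (-0.02) and Cyp27b1 (-0.03) did not pass either. Of neighbouring retinoid genes, Aldh1a3, which makes retinoic acid, was higher (3.11 ± 0.12 SE, adjusted p = 4.68e-07). The other Aldh1a genes on the list went both ways. Aldh1a7 was higher (0.58, adjusted p = 0.00173), Aldh1a1 was lower (-0.48, adjusted p = 0.00608), and Aldh1a2 did not pass (0.20). Lrat, which stores retinol as esters, was lower (-1.57 ± 0.15 SE, adjusted p = 7.78e-05). Vdr, the vitamin D receptor, was higher (1.11 ± 0.06 SE, adjusted p = 2.53e-06). Cyp20a1, an enzyme with no settled substrate, fell by 0.18 ± 0.03 (SE, adjusted p = 0.00364).

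Each channel was also compared alone between OVA and PBS arrays. In channel 2, labelled as the single lungs, 0 of the 91 members passed in limma and 1 had an unadjusted p under 0.05, against 0.00778% and 3.62% of all genes. In channel 1, labelled as the same pool on every array, 25 of the 91 members passed, 19 higher and 6 lower on the OVA arrays. Over all genes 27.7% passed there, 15.6% higher and 12.0% lower. The share of members that passed in channel 1 was thus near that of all genes. Of the called members, 22 passed in both the ratio and channel 1, and all 22 had opposite signs there. Channel 1 is the divisor of the ratio and no member passed in channel 2. The opposite signs thus follow largely from the arithmetic and are not separate evidence. On the OVA arrays Cyp2f2 read 18.9 ± 0.84 (SD, n = 5) in channel 2 and 38.0 ± 2.45 in channel 1, whereas on the PBS arrays it read 21.04 ± 1.47 (SD, n = 4) and 21.4 ± 1.26. Cyp4b1 read 11.8 ± 0.28 and 28.1 ± 1.73 in channels 2 and 1 of the OVA arrays, against 12.3 ± 1.87 and 12.2 ± 0.40 in those of the PBS arrays. Cyp7b1 read 1.01 ± 0.08 and 0.332 ± 0.03 in channels 2 and 1 of the OVA arrays, against 1.03 ± 0.16 and 1.03 ± 0.08 in those of the PBS arrays. For these genes the odd value was channel 1 of the OVA arrays, high for Cyp2f2 and Cyp4b1 and low for Cyp7b1.

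**Figure D4:**
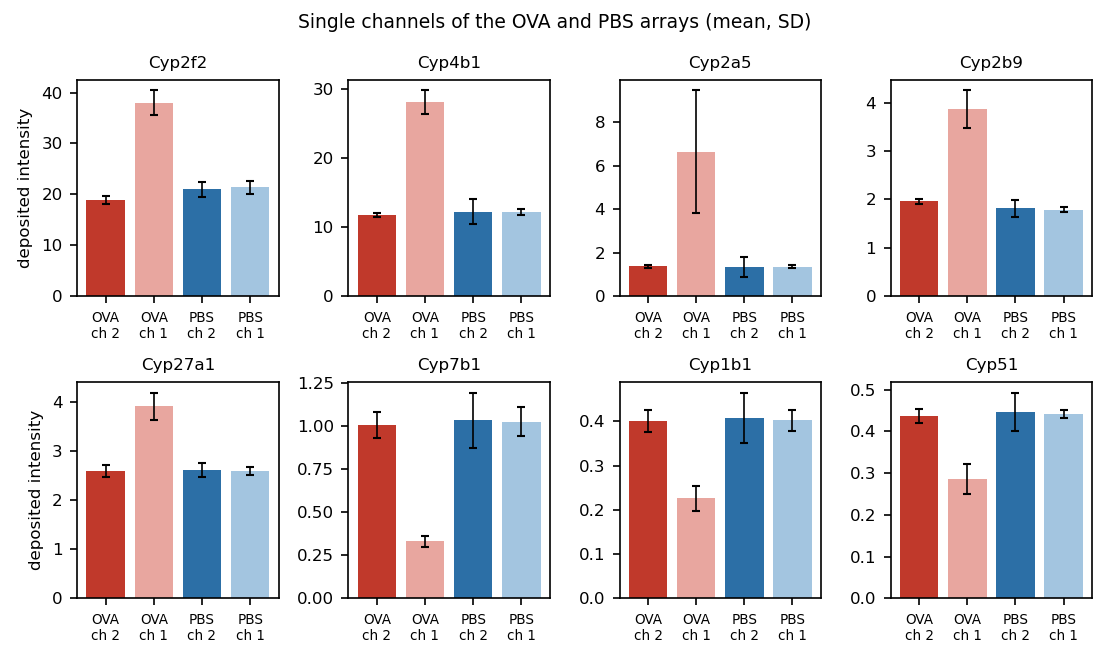
Mean deposited intensity (bars, SD as error bars) of 8 P450 genes in each channel, for the OVA arrays (n = 5) and the PBS arrays (n = 4), with an axis from 0 for each gene. In each panel 3 bars are alike and channel 1 of the OVA arrays stands apart, above them for Cyp2f2, Cyp4b1, Cyp2a5, Cyp2b9 and Cyp27a1 and below them for Cyp7b1, Cyp1b1 and Cyp51.

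The channels also differed in how much they varied between arrays of a group. On the OVA arrays Cyp2a5 read 1.32, 1.39, 1.48, 1.41 and 1.30 in channel 2 and 5.40, 4.69, 11.58, 6.42 and 5.14 in channel 1. On the PBS arrays it read 1.45, 1.45, 1.77 and 0.70 in channel 2 and 1.34, 1.33, 1.44 and 1.31 in channel 1. Channel 2 was thus steady on the OVA arrays and channel 1 on the PBS arrays. For Cyp26b1 the OVA arrays ranged over 1.53 to 2.09 in channel 2 and 2.28 to 6.62 in channel 1, and the PBS arrays over 1.01 to 2.42 and 1.52 to 1.64. Among the 44 members above the median intensity, the SD of log2 intensity was larger in channel 1 than in channel 2 for 31 on the OVA arrays, and larger in channel 2 than in channel 1 for 33 on the PBS arrays. Over all genes above that intensity the same order was seen for 9595 and 9939 of 14758. By the labels channel 1 is the pool in both groups.

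More than 1 probe measured 13 of the members. Those of Cyp2b9 disagreed in direction and those of Cyp2a4 in size, as given above, and the third of Cyp2a5 gave -0.81 beside -2.09 and -2.20. Cyp2c38, not past the threshold by its brightest probe (0.0039), had a second probe that was lower (-0.59 ± 0.14 SE, adjusted p = 0.011). Which transcript each of these probes reads was not tested. Probes of Cyp1b1, Cyp2b10 and Cyp4b1 gave the same direction and call.

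**Figure D5:**
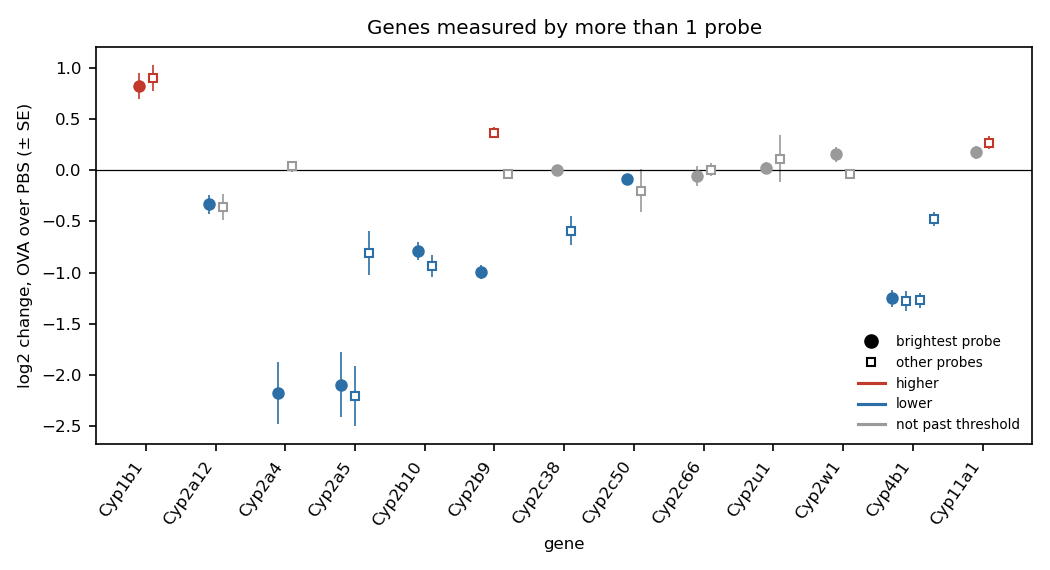
Log2 change (OVA over PBS arrays, ± SE, n = 5 and 4) of each probe of the 13 P450 genes with more than 1 probe, tested singly over all probes. The brightest probe of each gene is a filled circle, and open squares of Cyp2b9 (0.37), Cyp2a4 (0.04) and Cyp2c38 (-0.59) lie apart from it.

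Of 12 partners that pass electrons to P450s 5 were lower, 3 higher and 4 not past the threshold, with a median change of -0.024. Over all genes tested 23% were lower and 17.3% higher. Among those with a probe above the median intensity the shares were 32.8% and 25.5%. Por, the reductase of the microsomal P450s, fell by 0.41 ± 0.06 (SE, adjusted p = 0.000592). Pgrmc1, a haem-binding P450 partner, fell by 0.84 and Cyb5a, microsomal cytochrome b5, by 0.81, whereas Cyb5b, its mitochondrial outer membrane counterpart, rose by 0.58. On the ferredoxin side, which serves mitochondrial P450s such as Cyp27a1, Fdx1 was higher (0.26, adjusted p = 0.000149) and Fdx2 did not pass. Fdxr only just passed (0.15, adjusted p = 0.0485), its groups overlapped, and 1 rounding step was worth 0.07. Of 10 enzymes that make or break down haem 4 were higher and 3 lower, with a median change of 0.09. Hmox1, the inducible haem oxygenase, rose by 1.36. Genes of haem synthesis went both ways: Alas2 and Fech fell by 1.16 and 0.81, Cpox rose by 0.37, and Urod and Ppox did not pass. Alas1, the housekeeping first step, fell by 0.41.

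Among 34 regulators of P450 genes 15 were lower, 5 higher and 14 not past the threshold, with a median of -0.06. Shares over all genes tested were 23% lower and 17.3% higher, or 32.8% and 25.5% with a probe above the median intensity. Ppara fell by 0.72 and its coactivator gene Ppargc1a rose by 0.73. Nr1i2 (PXR), the drug sensor that drives Cyp3a genes in liver, was lower (-0.23, adjusted p = 0.00568). Its probe was dim, with a mean intensity of 0.115, and 1 rounding step was worth 0.13. On 3 PBS arrays its ratio was exactly 1. Nr1i3 (CAR) did not pass (0.17). The airway factors Foxa1 and Foxa2 fell by 0.43 and 0.29. Of 20 neighbouring enzymes 9 were lower and 2 higher, with a median of -0.15. Both P450 enzymes whose symbol is not a Cyp symbol passed: Tbxas1, thromboxane synthase, rose by 2.20 ± 0.06 (SE, adjusted p = 1.23e-07), and Ptgis, prostacyclin synthase, fell by 0.32 ± 0.05 (SE, adjusted p = 0.0012).

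Markers of other lung cells moved beside these genes. For the counts below, the shares over all genes tested were 23% lower and 17.3% higher. Of 10 macrophage markers tested 8 were higher and 1 lower, with a median change of 1.40. The OVA arrays had macrophage sums of 55.6 to 62.0 in channel 2 and 12.8 to 14.3 in channel 1, against 55.3 to 62.5 and 58.9 to 61.2 for the PBS arrays. Of 12 endothelial markers 10 were lower and 1 higher (median -0.42), and of 7 alveolar type 2 markers tested 5 were lower and 1 higher (median -0.37), the usual markers Sftpb, Sftpc, Sftpd and Slc34a2 having fewer than 2 values in at least 1 group and so no test. For endothelial markers the OVA sums were 78.9 to 84.3 in channel 2 and 108 to 122 in channel 1, and the PBS sums 72.7 to 86.6 and 76.0 to 84.8. Over 6 alveolar type 2 markers with all values the OVA sums were 42.2 to 46.1 in channel 2 and 47.3 to 51.5 in channel 1, and the PBS sums 41.3 to 48.8 and 44.0 to 45.4. No marker listed here was at 0. The part of these cell types in the changes of the P450 genes was not tested.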

How the data were processed

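Lung RNA went through 2 rounds of amplification before hybridisation to 2-colour Agilent arrays, per the labels' protocols. The submitters' processing notes name Agilent Feature Extraction 8.5.1.1, and no other step of the authors is given in the sources used here. The main table holds, per the file headers, an intensity in each channel and a p-value for each of the probes, already scaled by the authors in a way not stated. The deposited intensity values above 0.01 are rounded to 0.01. The deposited p-value of each array was not used in a test. A second deposited table holds log10 ratios, which equalled the log10 of channel 2 over channel 1 (r of at least 0.999999, medians of 0), and only this comparison shows its scale and direction. No column of another sample was present (0 of all). Dyes come from the labels, since the headers number the channels.

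Arrays were grouped by the labelled source of channel 2 (5 OVA, 4 PBS). Symbols were updated through a RefSeq table of GRCm38.p6 (22966 probes current, 3126 by synonym, 17 by accession, 4009 kept, 9317 unnamed, 29 turned into dates). That table also gave the chromosomes of the gene clusters. Each gene stands by its brightest probe. Log2 ratios were compared with limma (version 3.58.1, R version 4.3.3; eBayes after lmFit, no covariates, two-sided), with Benjamini-Hochberg adjustment over 25719 genes with at least 2 values in each group, and each channel alone likewise. Probes of a gene were compared in a fit of every probe. The step was tested on simulated ratios. Promoter windows are the 250 bases before each start in a RefSeq table, which held 68 of the 91 genes, and Cyp7b1 was not among them.

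The members, lists, tests and alternatives were chosen with earlier results of these data known. Named were the 10 largest rises and falls past the threshold, the brightest member of each other family, a set of P450 genes named whatever their result, and up to 3 genes of each further list. Further genes were named after their values were seen. A gene of the list of neighbouring enzymes that this rule names is not reported here. Alternatives covered scaling, centring, loess (span 0.3), 0.05 added to both channels, leaving out the dimmest 0.25 of probes, the choice of probe and table, array weights, the prior, OVA arrays alone, thresholds, the sign of the ratio and each array left out.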

Additional observations from a re-analysis of the deposited data

Results flagged for a closer look

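Among the 38 named P450 genes, 72 groups of arrays were tested for an array far from the others (Dixon's test), and 15 had one. The chance rate of about 1 in 20 holds for unrounded values and separate groups. These ratios are rounded and those of Cyp2a4 and Cyp2a5 moved together, so the 15 cannot be weighed against that rate. Of the 15, 7 were a PBS group in which the other 3 arrays had a ratio of exactly 1 (0.00 on the log2 scale). In each of these 7 groups the whole range was that of 1 array, so any value other than 0.00 is flagged. They were Cyp3a13 (0.585), Cyp4a10 (0.263), Cyp26a1 (0.415), Cyp2s1 (0.0525), Cyp4f18 (-0.3219) and Cyp8b1 (-0.1699), each on PBS replicate 2, and Cyp19a1 (0.415) on PBS replicate 3.

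Cyp2a4 and Cyp2a5 lay at -0.8453 and -0.9041 on PBS replicate 4, against 0.09 to 0.25 and 0.11 to 0.30 on the other PBS arrays. OVA replicate 3 stood apart for Cyp2a12 (-0.6781), Cyp2j6 (-0.4731), Cyp2b19 (0.337) and Cyp1a2 (-0.1926). OVA replicate 4 stood apart for Cyp2c70 (0.5406), and OVA replicate 5 for Cyp8b1 (0.0, against -0.26 to -0.19 on the other OVA arrays). The causes were not tested.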

How the results depend on the processing

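Of the 28 called P450 genes, 23 kept their call and direction in all 21 settings (18 lower, 5 higher), which leave the sign of the ratio as deposited. The others, Cyp2a12, Cyp2c50, Cyp4f13, Cyp4f18 and Cyp20a1, lost it in at least 1. The count of called members lay between 25 and 31 when single arrays were left out, with 20 to 23 lower and 5 to 8 higher. Over the same fits the counts called were 7 to 9 for electron transfer partners, 7 for haem enzymes, 19 to 21 for regulators and 10 to 12 for neighbouring enzymes. Samples with the same replicate number did not vary together (correlations of their deviations of -0.15 to -0.0004), so the numbers were not taken as pairs. The replicate number as a block (replicate block) gave 24 members, 18 lower and 6 higher, and 29.8% of all genes; Cyp2a12, Cyp2c50, Cyp4f13, Cyp4f18 and Cyp20a1 lost their call there. A change of at least 2-fold left 5 members, 1 higher and 4 lower. Turning the sign of the OVA ratios, which is not among the 21 settings, gave 25 higher and 9 lower members, and 39% of all genes. With it 27 of the 28 called members had the opposite call and Cyp4f18 lost its call. The alternatives that leave the sign as deposited gave 1086 values of named genes. Of these, 1066 stayed on their side of the threshold, 14 lost and 6 gained a call, and 10 that were never called crossed 0 (by at most 0.03). Dim probes limit the depth of what can be read: 47 of 91 members lay below the median intensity.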
